A study of Drosophila melanogaster with 4 samples.

Results

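Respiratory complex I (NADH:ubiquinone oxidoreductase) is described here through its nuclear genes, taken as every nuclear gene whose symbol begins with ND-, which gave 40 of 14001 annotated genes. They comprise 7 core subunit genes, 27 accessory subunit genes and 6 paralogs, whose symbols end in L, L1 or L2. The samples were whole embryos of Drosophila melanogaster strain w118, aged either 0–1 h or 4–5 h from egg laying. Each stage had 2 libraries, and the labels give no treatment or further allele. The question was how RNA differs before and after the embryo's own genome becomes active. Native RNA molecules were read by Nanopore direct RNA sequencing of total RNA, and each value rests on the reads assigned to annotated transcripts. Separate egg collections for the libraries of a stage are not stated in the labels. Every p-value therefore reflects the spread among these 4 libraries alone, and that spread may be technical.

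Complex I is the entry point of electrons from NADH into the mitochondrial respiratory chain. Its matrix arm oxidises NADH and passes electrons along iron–sulfur clusters to ubiquinone, and its membrane arm pumps protons across the inner membrane. The core subunits carry out this chemistry and are conserved from bacteria, and those of the membrane arm are encoded in mitochondrial DNA. Accessory subunits surround the core and are needed for assembly and stability. The roles given below are those known for the mammalian orthologues. The fly egg inherits its mitochondria and a large store of messenger RNA from the mother.

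The libraries held 429534 to 883138 reads. Reads on genes for cytosolic ribosomal proteins made up 22.96% and 25.9% of the early libraries against 49.6% and 49.2% of the late ones, so a share of the library and a level scaled by TMM (trimmed mean of M values) can differ in direction. All 4 maternal marker genes tested were lower at 4–5 h and all 5 zygotic markers were higher, as the stage labels state. Yolk and follicle markers had at most 2 reads in a library, late muscle markers 1, 1, 15 and 30 reads, testis markers 51, 63, 9 and 6, and hemocyte markers 96, 98, 66 and 46, with the 0–1 h libraries first. Of 3 hemocyte markers tested, 2 were higher and 1 was lower at 4–5 h, so the summed reads do not describe each gene. The testis reads came from 2 of 10 markers, of which 1 was tested and was lower. The part of these other cells in the results below was not tested.

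Most complex I genes were higher at 4–5 h. Of 33 members that passed the filter on low counts, 27 rose and 0 fell in edgeR's quasi-likelihood test at an adjusted p under 0.05, while 28.6% of all 6042 genes tested rose and 31.5% fell. The median log2 change of the 33 was 1.09, ranging from -0.22 for ND-ACP to 2.53 for ND-MLRQ, beside -0.10 over all genes. Both 4–5 h libraries lay above both 0–1 h libraries in 31 of the 33, against 37.7% of all genes. In bulk embryos, more cells of a type and more RNA per cell cannot be told apart, and the amount of RNA per embryo was not measured. The part of poly(A) tails in the number of reads, for these genes and for the ribosomal protein genes, was not tested.

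The direction of the change depended on the scaling, and every scaling used here is relative. The distance from the other genes was less affected. With library size alone 6 members rose, 6 fell and their median was -0.11, and with deposited TPM (a level per transcript length, scaled to a fixed sum) plus a pseudocount of 1, 1 member rose, 23 fell and the median was -0.95. These settings moved the median of all genes to -1.29 and -1.80. The members' median minus that of all genes was 1.19 with TMM, 1.18 with library size alone and 0.85 with TPM, and it lay between 0.74 and 1.34 over all settings run. Log2 changes below are on the TMM scale, and rose or higher refers to reads on that scale. DESeq2 called 19 members higher.

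**Figure D1:**
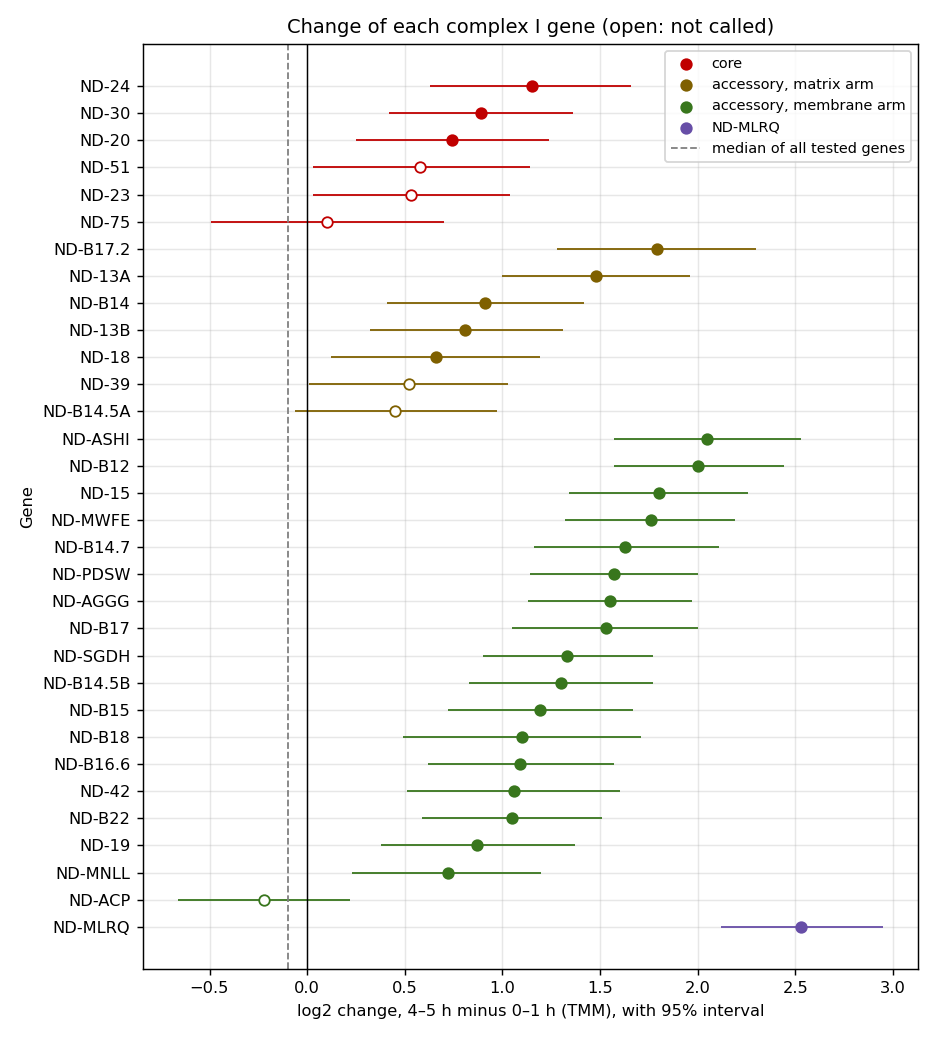
Log2 change of 32 tested complex I genes between 0–1 h and 4–5 h on the TMM scale, with 95% intervals; filled points were called by edgeR and open points were not. The dashed line marks the median of all tested genes at -0.10, and 31 of the 32 points lie to its right; on library size alone the members' median was -0.11 and on TPM -0.95.

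Among the core subunits of the NADH-oxidising tip, ND-24 rose and ND-51 and ND-75 did not pass the test. ND-24 (NDUFV2 in human), which carries an iron–sulfur cluster, had 89.9 and 78.5 TMM-scaled CPM (reads of a gene per 1000000 of the library) at 0–1 h and 151 and 231 CPM at 4–5 h. The groups did not overlap, and the log2 change was 1.15 ± 0.26 (SE, edgeR adjusted p = 1.0e-04). ND-51 (NDUFV1), which binds the flavin that takes electrons from NADH, had 86.5 and 72.5 CPM and then 127 and 109 CPM. Its libraries were separate by stage, with a log2 change of 0.58 ± 0.28 and an adjusted p of 0.0629. That p was 0.0458 with RLE size factors, 0.0496 with TMM computed without ribosomal genes, 0.0455 with a stricter filter and 0.0386 without 4–5 h replicate 2. ND-75 (NDUFS1), the longest member at a read-weighted length of 2555 nt, had 70.5 and 64.0 CPM and then 65.4 and 82.5 CPM. Its groups overlapped and its log2 change was 0.10 ± 0.30 (adjusted p = 0.777), with the sign turning to -0.04 without 4–5 h replicate 2.

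Of the core subunits that lead to ubiquinone, ND-30 and ND-20 rose and ND-23 did not pass the test. ND-30 (NDUFS3) had 152 and 163 CPM at 0–1 h and 273 and 313 CPM at 4–5 h, with no overlap between stages. Its log2 change was 0.89 ± 0.24 (adjusted p = 8.6e-04, and 0.0581 without 0–1 h replicate 1). ND-20 (NDUFS7), which helps form the ubiquinone site, had 109 and 138 CPM and then 227 and 181 CPM. Its log2 change was 0.74 ± 0.25 (adjusted p = 0.00787), but the adjusted p was 0.204 without 0–1 h replicate 1 and 0.0978 without 4–5 h replicate 1. ND-23 (NDUFS8), which holds iron–sulfur clusters, had 96.7 and 128 CPM and then 158 and 168 CPM, a log2 change of 0.53 ± 0.25 that missed the threshold (adjusted p = 0.0633). It passed with RLE size factors at 0.0458 and with the stricter filter at 0.0390.

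The accessory subunits of the matrix arm gave 5 rises among 7 tested, with a median log2 change of 0.81. ND-B17.2 (NDUFA12) had 60.3 and 118 CPM at 0–1 h and 307 and 310 CPM at 4–5 h. The late libraries were alike and the early ones differed, and the log2 change was 1.79 ± 0.26 (adjusted p = 1.4e-08). ND-13A (NDUFS6), a zinc-binding subunit, rose by 1.48, ND-B14 by 0.91, ND-13B by 0.81 and ND-18 (NDUFS4) by 0.66. The last 3 were less secure when a library was left out. Without 4–5 h replicate 1 the adjusted p was 0.246 for ND-B14 and 0.113 for ND-13B, and without 0–1 h replicate 1 it was 0.115 and 0.136. For ND-18 it was 0.144 without 0–1 h replicate 1, 0.175 without 0–1 h replicate 2 and 0.0606 without 4–5 h replicate 2. ND-39 (NDUFA9) had a log2 change of 0.52 (adjusted p = 0.0722, and 0.0492 with RLE size factors and 0.0447 with the stricter filter). ND-B14.5A (NDUFA7) had a log2 change of 0.45 (adjusted p = 0.123, and 0.0272 without 4–5 h replicate 1). ND-B8 (NDUFA2) had 0 reads in 3 libraries and 1 read in 4–5 h replicate 2, below a floor of 3 counts, so no change could be measured.

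All 7 tested accessory subunits of the proximal membrane arm rose, with a median log2 change of 1.30 and a range of 0.87 to 1.80. ND-15 (NDUFS5), which lies on the intermembrane-space side, had 139 and 129 CPM at 0–1 h and 523 and 406 CPM at 4–5 h. ND-MWFE (NDUFA1), a short membrane-spanning subunit, had 172 and 151 CPM and then 556 and 534 CPM. In both genes every late library was above every early one, with log2 changes of 1.80 ± 0.23 (adjusted p = 1.7e-10) and 1.76 ± 0.22 (adjusted p = 1.0e-10). ND-B14.7 rose by 1.63, ND-B14.5B by 1.30, ND-B16.6 (NDUFA13) by 1.09, ND-42 (NDUFA10) by 1.06 and ND-19 (NDUFA8) by 0.87. The call for ND-19 was lost without 0–1 h replicate 2 (adjusted p = 0.0660).

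Of the 11 distal membrane arm subunits, 10 rose, with a median log2 change of 1.33. ND-ASHI (NDUFB8) had 94.4 and 93.0 CPM at 0–1 h and 409 and 366 CPM at 4–5 h. ND-B12 (NDUFB3) had 158 and 135 CPM and then 582 and 597 CPM. These are membrane-spanning subunits, and both had groups far apart, with log2 changes of 2.05 ± 0.24 (adjusted p = 9.2e-12) and 2.00 ± 0.22 (adjusted p = 1.0e-12). ND-AGGG (NDUFB2), among the 3 members with the most reads at either stage, had 395 and 402 CPM and then 1169 and 1171 CPM. Replicates of ND-AGGG were close, and its log2 change was 1.55 ± 0.21 (adjusted p = 1.5e-09). ND-PDSW, ND-B17, ND-SGDH, ND-B15, ND-B18, ND-B22 and ND-MNLL rose by 0.72 to 1.57. ND-B18 rested on 1 late library, with 351 CPM in replicate 1 and 155 CPM in replicate 2 against 102 and 140 CPM at 0–1 h. Its adjusted p of 0.00240 became 0.326 without 4–5 h replicate 1 and 0.121 without 0–1 h replicate 1. ND-MNLL is uncertain, because CG45089 shares up to 649 nt of exon with it on the same strand and was listed with the same rounded reads (120, 115, 147 and 54), and its call was lost without 0–1 h replicate 1 (0.134), 0–1 h replicate 2 (0.115) or 4–5 h replicate 1 (0.228).

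ND-ACP was the exception in the distal arm. Its product (NDUFAB1) is the mitochondrial acyl carrier protein, which also serves mitochondrial fatty acid synthesis. The gene (3L, 1329949–1331631, plus strand, BDGP6.54) had 316 and 343 CPM at 0–1 h and 300 and 264 CPM at 4–5 h. Both late libraries lay below both early ones, by less than the test could call on the TMM scale (log2 change -0.22 ± 0.22, adjusted p = 0.403). With library size alone ND-ACP was called lower, at -1.41 (edgeR adjusted p = 5.1e-07). With TPM plus a pseudocount of 1 it was also called lower, at -2.15 (limma adjusted p = 1.2e-07). The median of all genes in these settings was -1.29 and -1.80. ND-ACP stood among the 3 members with the most reads at 0–1 h.

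ND-MLRQ had the largest rise. Its orthologue, NDUFA4, was first described as a complex I subunit and was later assigned to complex IV, so it was placed in neither arm. The gene (3L, 23339326–23345936, plus strand, BDGP6.54) had 369 and 527 CPM at 0–1 h and 2541 and 2646 CPM at 4–5 h. All late values were well above the early ones, a 5.79-fold rise (log2 change 2.53 ± 0.21, adjusted p = 1.7e-17). On the TPM scale ND-MLRQ was the 1 member called higher, with 2243 and 3053 and then 3722 and 3737 TPM, while ND-ASHI and ND-B12 had log2 changes of 0.10 and 0.02 that were not called. Its share of complex I reads was 7.95% and 10.5% early and 19.5% and 21.7% late.

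**Figure D2:**
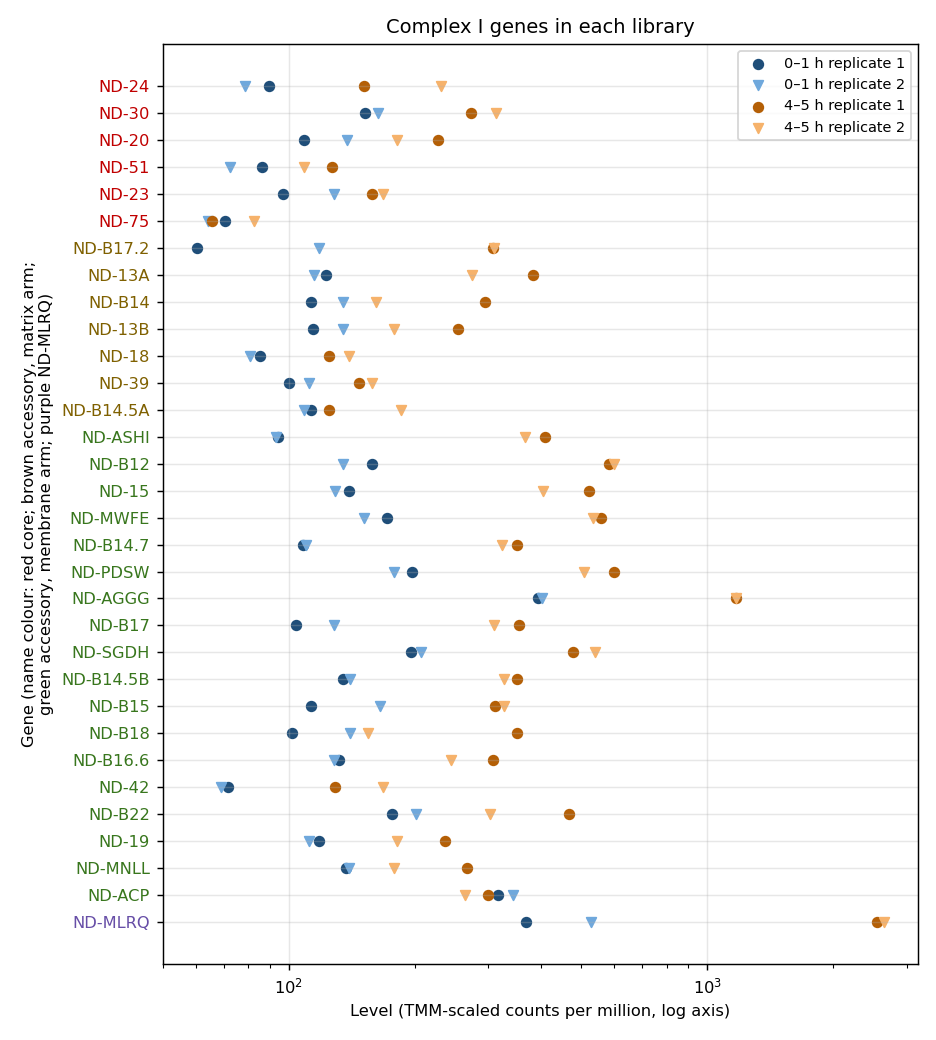
Level of 32 tested complex I genes in each of the 4 libraries, in TMM-scaled CPM on a log axis, with core genes at the top and ND-MLRQ at the bottom. ND-MLRQ reached 2541 and 2646 CPM at 4–5 h, and ND-ACP is the gene whose late libraries both lie below the early ones.

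Levels were set side by side per length, in deposited TPM, with a limit. The deposited TPM divides by the length minus 250 nt, which raises short genes, and in direct RNA sequencing a long molecule is not expected to give more reads than a short one. ND-MWFE, at 390 nt, had a mean of 161 CPM and 1110 TPM at 0–1 h, and ND-75, at 2555 nt, had 67.3 CPM and 27.1 TPM. With that division, the 33 members spanned 30.1 to 2243 and 24.1 to 3053 TPM at 0–1 h, and 6.51 to 3722 and 9.05 to 3737 TPM at 4–5 h, with ND-75 lowest and ND-MLRQ highest in each library. After ND-MLRQ, ND-AGGG had the highest mean TPM at both stages.

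Core genes rose less than accessory genes on the TMM scale, but the classes also differed in transcript length. The median log2 change was 0.74 in 7 core genes, of which 4 rose, and 1.25 in 26 accessory genes, of which 23 rose. The accessory median minus the core median was 0.51, and it lay between 0.48 and 0.66 over all settings run, TPM included. With library size alone the medians were -0.45 in core and 0.06 in accessory genes. With TPM plus a pseudocount of 1 they were -1.34 and -0.81, so core genes fell further there. The share of complex I reads on core genes was 15.0% and 14.3% in the early libraries and 8.73% and 10.2% in the late ones. Without ND-MLRQ these shares were 16.3%, 16.0%, 10.8% and 13.0%. The groups did not overlap, with a two-sided exact permutation p of 0.333, the smallest that 2 against 2 libraries can give.

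Median read-weighted transcript length was 1087 nt for core genes and 642 nt for accessory genes. Across the 33 members, log2 change and log2 length had a Pearson r of -0.57 and a Spearman rho of -0.53. These are descriptions over genes of the same 4 libraries, which are not independent replicates. Within the 26 accessory genes r was -0.42 and rho -0.39, and over all 6042 genes r was -0.15 and rho -0.22. Among members under 600 nt, 11 of 12 rose with a median of 1.39, and of all genes of that length 64.8% rose with a median of 1.41. Without cytosolic ribosomal protein genes, 60.8% of all genes of that length rose, with a median of 1.15. From 600 to 900 nt, 11 of 13 members rose (median 1.10), against 51.7% of all genes (median 0.76). Without cytosolic ribosomal protein genes the latter was 47.9% (median 0.61). From 900 nt up, 5 of 8 members rose (median 0.78), against 24.3% of all genes (median -0.24). In that longest class the 6 core genes had a median of 0.78 and the 2 accessory genes, ND-39 and ND-42, 0.79. Class and length cannot be told apart here. The read-weighted transcript length of whole libraries also moved with stage, at 1798 and 1665 nt at 0–1 h and 1266 and 1338 nt at 4–5 h, and its part in these differences was not tested.

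**Figure D3:**
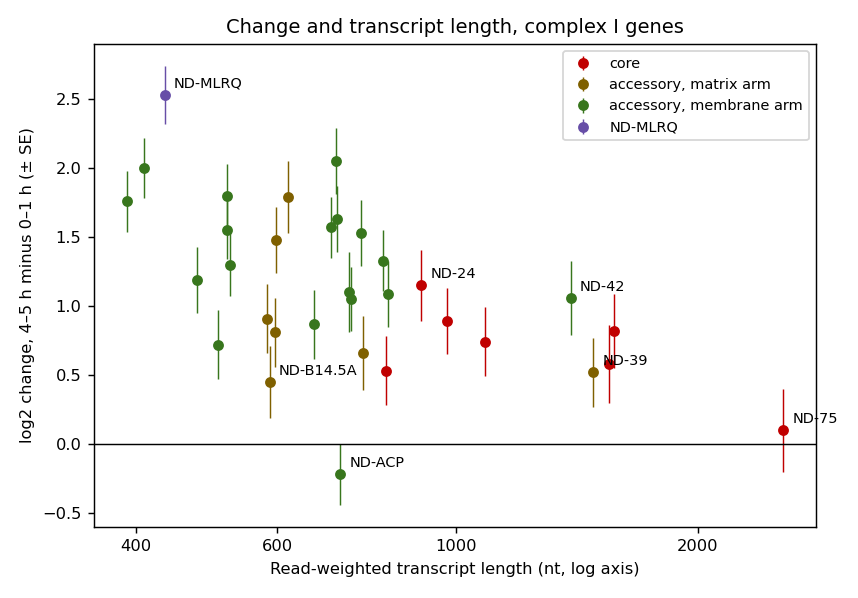
Log2 change from 0–1 h to 4–5 h (TMM scale, bars ± SE) against read-weighted transcript length in nt on a log axis, for the 33 tested complex I genes. Core genes (red) lie mostly to the right, with a median length of 1087 nt, and r over all points was -0.57.

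The arms were compared within the accessory genes, and the difference between arms was not tested. The accessory genes of the matrix arm had a median log2 change of 0.81 at a median length of 598 nt, and the 18 placed in the membrane arm had 1.32 at 705 nt. The difference of these medians was 0.50 and lay between 0.41 and 0.60 over all settings run. By length, it was seen under 600 nt, where 4 matrix arm genes had a median of 0.86 and 7 membrane arm genes 1.55. From 600 to 900 nt both medians were 1.22, over 2 and 10 genes. From 900 nt up there was 1 gene in each arm, ND-39 at 0.52 in the matrix arm and ND-42 at 1.06 in the membrane arm. Matrix arm genes held 19.8% and 21.3% of accessory reads without ND-MLRQ in the early libraries and 17.4% and 17% in the late ones. The matrix arm, core genes included, took 30.3% and 30.4% of complex I reads at 0–1 h and 21.3% and 21.7% at 4–5 h (exact permutation p = 0.333, the smallest possible). Without ND-MLRQ the shares were 32.9%, 33.9%, 26.4% and 27.8%. The membrane arm's share overlapped between stages, at 61.8% and 59.1% early and 59.3% and 56.6% late (exact permutation p = 0.667).

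All complex I genes together held 0.71% and 0.746% of the early reads against 0.814% and 0.861% of the late ones. With ribosomal protein and rRNA genes left out of the total, the shares were 0.949% and 1.02%, then 1.81% and 1.81%. In TPM they were 1.42% and 1.43%, then 1.13% and 1.12%, so the direction turned. Each comparison had an exact permutation p of 0.333.

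The other nuclear genes of the respiratory chain were compared as lists. In complex II, which passes electrons from succinate, 1 of 4 tested genes rose and 2 fell (median -0.55), with SdhA at a log2 change of -1.70 and SdhC at 0.94. In complex III 6 of 8 rose and 1 fell (median 1.13), led by UQCR-14 at 2.02. In complex IV, cytochrome c oxidase, all 10 rose (median 1.62), led by cype at 2.47, close to the 2.53 of ND-MLRQ. In complex V, the ATP synthase, 9 of 11 rose and 2 fell (median 1.09). These lists also differ in length. The median read-weighted length was 1056 nt in complex II, 770 nt in III, 600 nt in IV and 802 nt in V. Over all genes tested it was 1918 nt. The part of length in the differences between complexes was not tested. Among 73 mitochondrial ribosomal protein genes 24 rose and 6 fell (median 0.42), and all 86 cytosolic ones tested rose (median 2.22). The mitochondrial ribosomal rises were 32.9% of those tested, near the 28.6% of all genes. These counts changed with the scaling, as those of complex I did, though not every list turned in direction. With library size alone, 0 genes rose and 3 fell in complex II, 2 and 2 in complex III, 5 and 0 in complex IV, 1 and 3 in complex V, 1 and 49 in the mitochondrial ribosome and 82 and 0 in the cytosolic ribosome. With TPM plus a pseudocount of 1, the same lists gave 0 and 4, 0 and 6, 0 and 5, 0 and 10, 0 and 71, and 37 and 2. The median minus that of all genes, with library size alone and with TPM, was 1.72 and 1.48 in complex IV, 1.24 and 0.98 in complex III, 1.20 and 0.84 in complex V, and -0.46 and -0.70 in complex II. In the mitochondrial ribosome it was 0.50 and 0.16, and 0.01 with DESeq2. In a mixed list of 7 other mitochondrial genes (CIA30, AIF, Cyt-c-p, sesB, mtSSB, TFAM and Pdss2) 2 rose (28.6%, as over all genes) and 2 fell. AIF, which acts in import and assembly of respiratory subunits, fell from 114 and 111 CPM to 7.27 and 16.5 CPM, and the carrier gene sesB rose from 983 and 1026 CPM to 3486 and 3028 CPM.

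**Figure D4:**
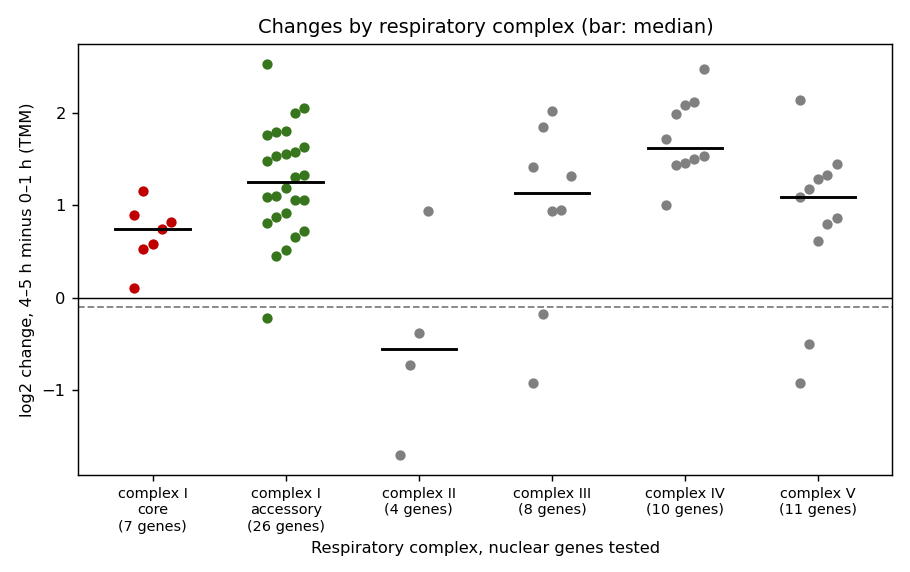
Log2 change from 0–1 h to 4–5 h (TMM scale) of each tested nuclear gene by respiratory complex, with the median as a bar and the median of all genes as a dashed line. All 10 complex IV genes lie above 0 on this scale, complex I core genes have a median of 0.74, and complex II is the 1 group with a median below 0, at -0.55; on library size alone the complex I median was -0.11.

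Mitochondrially encoded core subunits were measured for mt:ND2, mt:ND3, mt:ND4L and mt:ND6, and 0 of the 4 passed the test. mt:ND3 had 98 and 156 reads in the early libraries against 74 and 209 in the late ones, and mt:ND4L had 0 and 52 and then 24 and 0. In both genes the stages overlapped, and the other mt:ND genes were not analysed here. The 6 paralogs of complex I subunits, among them ND-20L, ND-24L and ND-B14.5AL, had 0 reads in each library. At these depths 3 counts, the limit that a count of 0 allows, corresponded to 3.41 to 9.90 TMM-scaled CPM, a limit on counting error only.

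ND-20 was the 1 member whose isoform usage passed the test. Of 20 members tested with diffSpliceDGE in edgeR, 1 was called, against 14.1% of 880 genes. ND-20 (X, 15985473–15986808, minus strand, BDGP6.54) has 3 annotated transcripts with the same coding length of 666 nt, with 3′ untranslated regions (3′ UTRs) of 162 nt in 2 of them and 538 nt in the third, whose ends lie 376 nt apart. The 3 also differ slightly in their 5′ part. The long form had 30 of 96 and 19 of 114 reads at 0–1 h and 103 of 125 and 47 of 55 at 4–5 h. It made up 30.9% (95% Wilson interval 22.9 to 41.1) and 16.3% (10.9 to 24.6) of ND-20 reads at 0–1 h, and 82.1% (74.8 to 88.1) and 84.8% (73.8 to 92.4) at 4–5 h. The long form was thus the minor form in both early libraries and the major form in both late ones, and the intervals, which cover counting error only, did not overlap between stages.

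The long form of ND-20 went from 33.8 and 22.5 to 186 and 154 CPM, while the short forms went from 75.5 and 115 to 40.7 and 27.6 CPM, so the gene's total rose less than its long form. The adjusted p for isoform usage was 0.0195, and 0.0112 with transcripts summed by 3′ end, where 1 of 14 members was called against 32.3% of 499 genes. The exact permutation p of the share was 0.333, the smallest possible. The isoform call was lost on leaving out 0–1 h replicate 1 (adjusted p = 0.523), 0–1 h replicate 2 (0.999) or 4–5 h replicate 2 (0.0909), each of which also left 0 calls among all genes. It was kept without 4–5 h replicate 1 (0.0467). With the Simes p-value in place of the gene F test, the adjusted p was 0.137, with 0 calls among all genes. In the 3′ end test, leaving out these libraries in the same order gave 0, 0, 0 and 3 members called, an alternative chosen after seeing the data.

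ND-B16.6 had the next smallest p in the 3′ end test. Its annotated 3′ UTR is 128, 372 or 680 nt. The form of 680 nt made up 3.69% and 0% in the early libraries against 33.5% and 29.4% in the late ones, and the shortest form 96.3% and 92.4%, then 55.6% and 51.9%. The stages did not overlap, but the adjusted p was 0.0894, above the threshold. Its exons share up to 221 nt with CG3847 on the opposite strand, and use of strand in read assignment is not stated. Of the 14 members in that test, 6 had a mean 3′ end farther downstream in both late libraries and 1, ND-13A, in the reverse direction. Of all 499 genes tested, 281 (56.3%) had it farther downstream and 36 in the reverse direction.

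**Figure D5:**
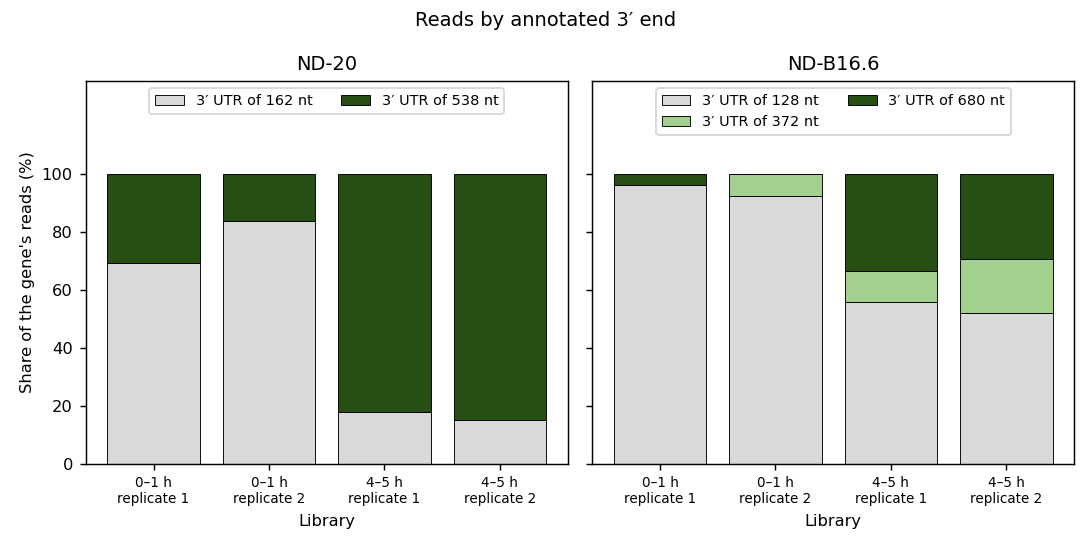
Share of reads by annotated 3′ end for ND-20 and ND-B16.6 in each library, in percent of the gene's reads, with darker colour for longer 3′ UTRs. The 538 nt form of ND-20 went from 30.9% and 16.3% to 82.1% and 84.8%, and the 680 nt form of ND-B16.6 from 3.69% and 0% to 33.5% and 29.4%.

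Reads of several members moved between transcripts from 1 replicate to the other. In ND-42, 1 of 2 transcripts that differ in their 5′ part took 100% of reads in 0–1 h replicate 1 and 0% in replicate 2. In ND-PDSW, the transcript of 651 nt took 0% and 64.2% of reads in the 4–5 h replicates, and in ND-B14 the transcript of 542 nt took 77.3% and 0%. Isoform levels of these genes are therefore not described by stage, though ND-B14 was among the members in the isoform and 3′ end tests. Gene totals of reads do not depend on this assignment within a gene. Gene TPM does, since the reads of each transcript are divided by its own length. ND-PDSW had 600 and 508 CPM in the 4–5 h replicates, but 281 and 298 TPM. In all, 17 members share some exon sequence with another gene, and apart from ND-MNLL the longest stretch was 227 nt, between ND-B22 and CG31855 on the opposite strand.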

How the data were processed

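Salmon read numbers deposited by the authors are expected counts per transcript, 1 table per library, not normalised. Deposited TPM had been divided by an effective length, 250 nt under the transcript length for 99.5% of transcripts. The tables' lengths in nt were used as other values, as deposited. The submitters' processing notes name minimap2, Salmon and BDGP6, with versions and filters not stated there. Poly(A) tails, whose lengths the labels' protocols say change at this time, were not measured. Transcripts were matched to Ensembl release 115 (BDGP6.54), 30280 of 30652, and reads were summed per gene and rounded.

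The stage difference of each gene was tested in R 4.3.3 by edgeR 4.0.16 (filterByExpr with a minimum count of 10, TMM, robust quasi-likelihood F test, stage only, Benjamini-Hochberg over 6042 genes, threshold 0.05). Isoform usage was tested with diffSpliceDGE on transcripts with at least 10 reads in at least 2 libraries, and again with 3′ ends within 50 nt summed. Shares were compared with scipy 1.17.1 exact permutation tests. DESeq2 1.42.0 and limma 3.58.1 served as alternatives. The fits were tested on simulated data in which few genes changed between stages, unlike here. That test does not bear on the choice of scaling. Depth was 573843, 557424, 883138 and 429534 reads, and it limits low genes. Core and accessory classes and arms follow the human orthologues. The members and lists were chosen with earlier results of these data known. Values in every library are given for core genes except 1 that is not reported here, the 6 largest rises, the 3 members with most reads per stage and members with isoform usage past the threshold. ND-B18, ND-B16.6, ND-42, ND-PDSW and ND-B14 were detailed after their values were seen. Sequences are not used here.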

Additional observations from a re-analysis of the deposited data

How the results depend on the processing

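The log2 changes of 32 tested members kept their direction under RLE, upper-quartile scaling, TMM without ribosomal genes, DESeq2, no filter, a stricter filter, thinning and leaving out any library, except ND-75, which was 0.10 and turned to -0.03 with upper-quartile scaling and lay between -0.04 and 0.29 with a library left out. The number of members called higher was 19 with DESeq2 (ND-13B, ND-18, ND-19, ND-20, ND-B14, ND-B18 and ND-MNLL among the calls lost), 26 with the replicate block (ND-18 lost, adjusted p = 0.0861), 20 to 27 with a library left out and 30 with RLE. Library size alone gave 6 higher and 6 lower members and a median of -0.11, with 654 higher and 3828 lower genes overall. TPM with a pseudocount of 1 gave 1 higher, 23 lower, a median of -0.95, and 312 and 4798 genes, and with 0.1 it gave 1, 22, -0.95, and 293 and 4674 genes. DESeq2 called 1026 genes lower. The members' median was 0.91 to 1.24 with a library left out. With library size alone, log2 changes turned negative for ND-24 -0.03, ND-B16.6 -0.10, ND-B18 -0.11, ND-42 -0.13, ND-B22 -0.15, ND-B14 -0.29, ND-30 -0.30, ND-19 -0.33, ND-13B -0.39, ND-20 -0.45, ND-MNLL -0.49, ND-18 -0.54, ND-51 -0.62, ND-23 -0.65, ND-39 -0.67, ND-B14.5A -0.73 and ND-75 -1.09. With TPM plus 1 they did so for ND-B17.2 -0.08, ND-MWFE -0.20, ND-15 -0.20, ND-B14.7 -0.32, ND-AGGG -0.36, ND-13A -0.41, ND-B17 -0.44, ND-PDSW -0.46, ND-B15 -0.73, ND-24 -0.79, ND-SGDH -0.80, ND-B14.5B -0.82, ND-42 -0.84, ND-B22 -0.95, ND-B18 -1.01, ND-30 -1.05, ND-19 -1.10, ND-B14 -1.12, ND-13B -1.17, ND-B16.6 -1.20, ND-18 -1.27, ND-MNLL -1.28, ND-51 -1.34, ND-23 -1.39, ND-39 -1.39, ND-20 -1.59, ND-B14.5A -1.60 and ND-75 -1.68. With TPM plus 0.1 the values were ND-B17.2 -0.08, ND-MWFE -0.20, ND-15 -0.20, ND-B14.7 -0.32, ND-AGGG -0.36, ND-13A -0.41, ND-B17 -0.44, ND-PDSW -0.47, ND-B15 -0.73, ND-SGDH -0.80, ND-24 -0.80, ND-B14.5B -0.83, ND-42 -0.86, ND-B22 -0.95, ND-B18 -1.02, ND-30 -1.06, ND-19 -1.10, ND-B14 -1.12, ND-13B -1.18, ND-B16.6 -1.20, ND-18 -1.28, ND-MNLL -1.29, ND-51 -1.37, ND-23 -1.40, ND-39 -1.42, ND-B14.5A -1.60, ND-20 -1.61 and ND-75 -1.80. The cause was not tested, and relative to the median of all genes, an alternative chosen after seeing the data, the members' median stayed higher in every setting run. The 1 isoform call among members and the 124 among all genes became 0 and 0 with the replicate block and with Simes p-values, where the adjusted p of ND-20 was 0.414 and 0.137. The replicate block also called 2 of the 4 mitochondrially encoded ND genes higher, mt:ND2 and mt:ND3, where the fit without it called 0. With a library left out the isoform calls were 0 to 3 and 0 to 60, and the adjusted p of ND-20 was 0.0467 to 0.999. The change in share of reads on complex I, 0.109 percentage points, was -0.301 in TPM and 0.825 without ribosomal genes, and that of core genes in complex I, -5.20, was -2.57 in TPM. Same-numbered libraries did not deviate together (r = -0.155 over 6042 genes), so the numbers were not taken as pairs, and the crossed pairing, added after seeing the data, gave 30 higher and 0 lower members. Genes under about 10 reads could not be compared at this depth.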
